A study of Mus musculus with 2 samples.

Results

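The miRNAs described here are miR-28a, miR-151 and miR-708, a small family whose hairpins derive from copies of LINE2, an ancient mobile element. They were counted in RNA captured with biotin-labelled proteins from mouse keratinocytes. Members were chosen by name, as the 5p and 3p products of these 3 hairpins: mmu-miR-28a-5p, mmu-miR-28a-3p, mmu-miR-151-5p, mmu-miR-151-3p, mmu-miR-708-5p and mmu-miR-708-3p. They are 6 of the 1477 miRNA names in the data. All 6 were found in both libraries. The data comprised 2 replicate libraries of a single group. In both, cultured mouse skin keratinocytes, kept in low-calcium medium, exogenously expressed Dsp-BirA, a fusion of the desmosomal plaque protein desmoplakin with a biotin ligase, and were treated with biotin. Streptavidin capture followed by CLEAR-CLIP, a method that joins an Argonaute-bound miRNA to the RNA it pairs with, was used to ask what Argonaute proteins do at the plaque. No input or unlabelled library was analysed here, so levels describe what was recovered, not enrichment at the plaque.

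A miRNA hairpin is cut into a duplex, and Argonaute keeps either the 5p or the 3p strand as its guide. The guide finds target RNAs mainly through its seed, bases 2 to 8 from its 5′ end, so strands with the same seed can share targets. LINE2 elements no longer move in mammals, but copies that lie close together in opposite orientation can fold into hairpins, and miR-28, miR-151 and miR-708 are known examples. Each sits inside a larger gene. In GRCm38.p6, Mir28a (chr16:24827855-24827940) lies within the span of Lpp, which encodes a LIM-domain protein of cell adhesions. Mir151 (chr15:73254815-73254882) lies within Ptk2, which encodes focal adhesion kinase. Mir708 (chr7:96249424-96249532) lies within Tenm4, which encodes a teneurin, a transmembrane protein of neural development. The gene table used here gives gene spans without exons. The miRNA counts carry no information on the host transcripts.

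Mature sequences from RefSeq (GRCm38.p6) matched 4 of the 6 members: both arms of miR-28a and of miR-708. They are shown because the seed defines the targeting family. Seeds are in capitals.
miR-28a-5p: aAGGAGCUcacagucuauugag
miR-708-5p: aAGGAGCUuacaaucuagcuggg
miR-28a-3p: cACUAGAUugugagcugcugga
miR-708-3p: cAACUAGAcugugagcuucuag
The 5p arms of miR-28a and miR-708 had the same seed, AGGAGCU. They were identical at 16 of 22 positions, counted from the 5′ end, and differed by C9U, G13A, U18G, U19C, G20U and A21G, with the miR-28a base first. Of the 1231 names in the data with a sequence (83.3%), no other name had this seed. The same 7 letters occurred at other positions in 4 further names, among them miR-339-5p. The 3p arms had different seeds, and no other name with a sequence had the seed of either. The longest run that these 3p arms shared was UGUGAGCU, outside the seeds. Their seeds, ACUAGAU in miR-28a-3p and AACUAGA in miR-708-3p, also hold the same letters ACUAGA, which begin a base later in miR-708-3p. By sequence, then, miR-28a-5p and miR-708-5p form a seed pair, while the 3p arms have related but shifted seeds. The seed of miR-151 was not examined.

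Strands of different hairpins in the family also matched each other. Among the 4 arms, the longest stretch of perfect Watson-Crick complementarity was between miR-28a-5p and miR-708-3p, shown with the complementary bases in capitals.
miR-28a-5p: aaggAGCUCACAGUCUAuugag
miR-708-3p: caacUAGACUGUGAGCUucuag
The run covered 13 bases, positions 5 to 17 of both strands. Among the 1230 other names with a sequence, miR-708-3p was the only one with a run this long against miR-28a-5p, and the next longest was 9 bases. The arms of miR-28a matched each other over a run of 8 bases and those of miR-708 over 5. Over 368 hairpins with both arm sequences, the median run between a hairpin's own arms was 6 bases, and 4 hairpins (1.09%) reached 13. Pairs through G and U were not counted. The match describes the letters, and whether the strands meet was not measured. It was sought after the sequences were seen.

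Replicate 1 held 3776893 miRNA counts and replicate 2 held 4122955. These are reads without molecular identifiers, so intervals cover counting error only, and 3 counts, the limit that a count of 0 allows, correspond to 0.794 and 0.728 CPM (counts per 1000000 miRNA counts of the library). The labels call the libraries replicates without saying that they came from separate cultures. The labelled epithelial origin was checked against 7 epithelial miRNAs, which took 10.6% ± 0.0228 of all counts (SD, n = 2). A list of 11 miRNAs of liver, neural, muscle, blood and mesenchymal cells took 0.0175% in replicate 1 and 0.0233% in replicate 2, and miR-214-3p, with 26 and 364 counts, accounted for the increase. Without miR-214-3p that list took 0.0168% and 0.0144%, most of it from the neural miR-9-5p, with 418 and 419 counts (106 ± 6.40 CPM).

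The family was a minor component. Its 6 names held 8132 counts in replicate 1 and 7915 in replicate 2, or 0.215% of the first library (0.211% to 0.220%, Wilson 95% interval) and 0.192% of the second (0.188% to 0.196%). The mean was 0.204% ± 0.0165 (SD, n = 2). For comparison, miR-31-5p, the most abundant name, had 69.9 ± 3.87 times the counts of the whole family. The 2 libraries differed in the family's share by more than counting error.

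The family's counts were divided unequally among the hairpins. miR-151 held 49.0% of them in replicate 1 and 44.3% in replicate 2. miR-28a held 34.8% and 43.9%, and miR-708 held 16.1% and 11.8%. Summed over arms, miR-151 had 1.41 times the counts of miR-28a in replicate 1 and 1.01 times in replicate 2, so the order of these hairpins rested on replicate 1. Both were above miR-708 in each library: miR-151 by 3.40 ± 0.510 times, and miR-28a by 2.16 times in replicate 1 and 3.73 times in replicate 2. The 5p arms together held 70.8% ± 1.70 of the family's counts (SD, n = 2).

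Of the 6 names, miR-28a-5p was the most abundant. It had 2590 counts (686 CPM) in replicate 1 and 3178 counts (771 CPM) in replicate 2, with a mean of 728 ± 60.1 CPM (SD, n = 2) and rank 110 of 1477 names. miR-708-5p, which carries the same seed, had 1312 counts (347 CPM) and 871 counts (211 CPM), with a mean of 279 ± 96.3 CPM and rank 152. miR-28a-5p thus had 1.97 times the counts of its seed partner in replicate 1 and 3.65 times in replicate 2. The partners moved in opposite directions between the libraries, and their sum, 0.103% and 0.0982% of all counts, varied less than either partner. Opposite moves partly cancel in any sum. The log2 ratio of miR-28a-5p, replicate 2 over replicate 1, was 0.17, below the SD of 0.27 over names of similar count. Whether the partners' levels are linked was not tested. The sum of the partners averaged 1008 ± 36.1 CPM.

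The arms of miR-151 followed miR-28a-5p and were close to each other. miR-151-3p had 2036 counts (539 CPM) and 2048 counts (497 CPM), with a mean of 518 ± 29.9 CPM and rank 124. miR-151-5p had 1951 counts (517 CPM) and 1458 counts (354 CPM), with a mean of 435 ± 115 CPM and rank 130. The mean levels of the arms differed by 82.8 CPM, less than the SD of miR-151-5p, and their ranges overlapped: miR-151-5p in replicate 1 lay above miR-151-3p in replicate 2. miR-151-3p was nevertheless the higher arm within each library.

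The remaining strands were the lesser arms of their hairpins. miR-28a-3p had 242 counts (64.1 CPM) and 298 counts (72.3 CPM), with a mean of 68.2 ± 5.80 CPM and rank 266. miR-708-3p had a single count in replicate 1 (0.265 CPM) and 62 counts in replicate 2 (15.04 CPM). Its level in replicate 1 was under the 3-count limit, and it was the only member near that limit in either library.

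**Figure D1:**
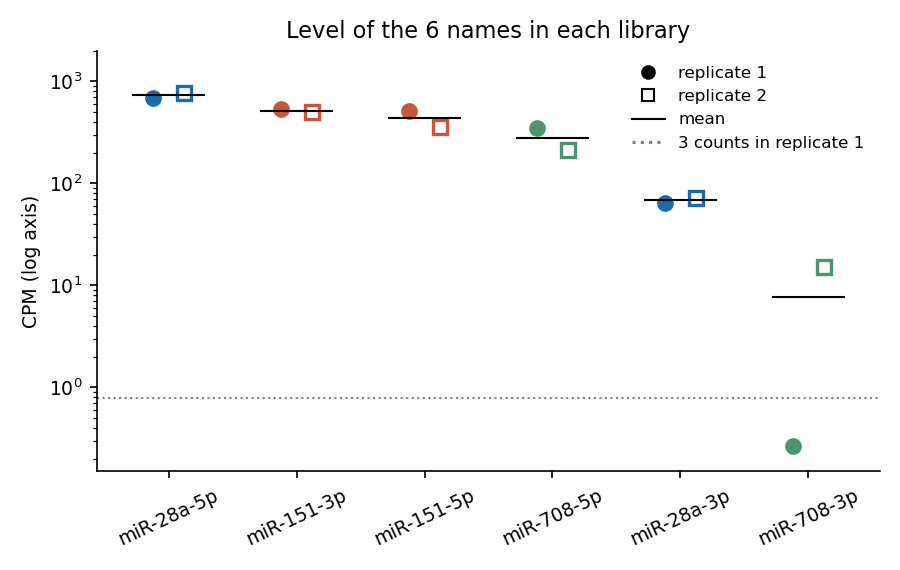
Level of each of the 6 names in CPM (log axis), with replicate 1 as filled circles, replicate 2 as open squares and the mean as a line; colours mark the hairpin and the dotted line marks 3 counts in replicate 1. miR-28a-5p, both arms of miR-151 and miR-708-5p sit between 211 and 771 CPM, while miR-708-3p lies below the dotted line in replicate 1 and at 15.04 CPM in replicate 2.

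In order of mean level the names were miR-28a-5p, miR-151-3p, miR-151-5p, miR-708-5p, miR-28a-3p and miR-708-3p. miR-28a-5p exceeded miR-151-3p by 1.41 ± 0.198 times, and its lower library (686 CPM) was above the higher one of miR-151-3p (539 CPM). The arms of miR-151 were not separated. miR-151-5p and miR-708-5p had ranges that did not overlap, but only just, at 354 CPM for the lower library of the first and 347 CPM for the higher library of the second. miR-708-5p stood above miR-28a-3p, by 5.42 and 2.92 times. With 2 libraries, the smallest p-value of an exact sign-flip test (two-sided) is 0.5, so these differences are set against the spread only. Counts of different miRNAs also carry the ligation and amplification efficiency of each sequence.

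The arm from which reads came differed among the 3 hairpins. miR-28a gave mostly its 5p arm, with 91.5% of its reads in replicate 1 (90.4% to 92.4%, Wilson 95% interval) and 91.4% in replicate 2 (90.4% to 92.3%). Its ratio of 5p to 3p was 10.70 and 10.66. The arm balance of miR-28a was therefore nearly the same in both libraries, although the level of its 5p arm was not.

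miR-708 was the most one-sided of the 3. Its 5p arm took 99.9% of its reads in replicate 1 (99.57% to 99.99%) and 93.4% in replicate 2 (91.6% to 94.8%). The intervals do not overlap. miR-708-3p had 1 and 62 counts, while miR-708-5p had 1312 and 871.

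miR-151 gave both arms in similar amounts. The 5p arm took 48.9% of its reads in replicate 1 (47.4% to 50.5%) and 41.6% in replicate 2 (39.96% to 43.2%). In an exact two-sided binomial test with Benjamini-Hochberg adjustment over 164 hairpins, its arms differed in replicate 2 (adjusted p = 2.45e-23) but did not pass the threshold of 0.05 in replicate 1 (adjusted p = 0.187). miR-151-3p over miR-151-5p was 1.04 in replicate 1 and 1.40 in replicate 2. The test compares reads within a library, not conditions. These 164 are the hairpins for which both arms were listed and each library had 100 or more counts. Of them, 91.5% passed in both libraries with the same arm higher. A higher 5p arm, as in miR-28a and miR-708, which both passed in both libraries, was found in 58.5% of hairpins and a higher 3p arm in 32.9%, so the 5p lead of these 2 is the common case. miR-151 was 1 of 9 hairpins that missed the threshold in at least 1 library.

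Most hairpins were one-sided: the median share of the dominant arm was 94.6%. miR-151 ranked 7 of the 164 by closeness to an even split, and 13 hairpins (7.93%) had a mean 5p share between 40% and 60%. Among the 99 hairpins with 1000 or more counts in each library, 6 (6.06%) lay in that range and miR-151 ranked 3. Its 5p share also differed between the libraries by more than that of most deep hairpins. These were mostly one-sided, with a median dominant arm share of 97.9%, and few were as evenly split as miR-151. The difference for miR-151, replicate 2 minus replicate 1, was -7.35 percentage points, rank 3 of these 99 by size, against a median size of 0.561. Among all 164 hairpins it ranked 44, against a median size of 1.62. For miR-28a it was -0.0279 points and for miR-708 -6.57 points, ranks 155 and 46 of 164. The median size was 4.95 over 68 hairpins with mean counts of 300 to 3000, miR-708 among them. By mean 5p share the hairpins nearest to miR-151 were miR-467d (45.8% ± 0.398), miR-297a (44.1% ± 2.03) and miR-1839 (49.4% ± 7.28). Between the libraries their shares differed by 0.562, 2.87 and -10.3 points. The hairpins nearest to miR-708, at 96.6% ± 4.65, were miR-1306 (96.4% ± 2.71), miR-15a (97.1% ± 0.230) and miR-34c (97.2% ± 0.866).

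**Figure D2:**
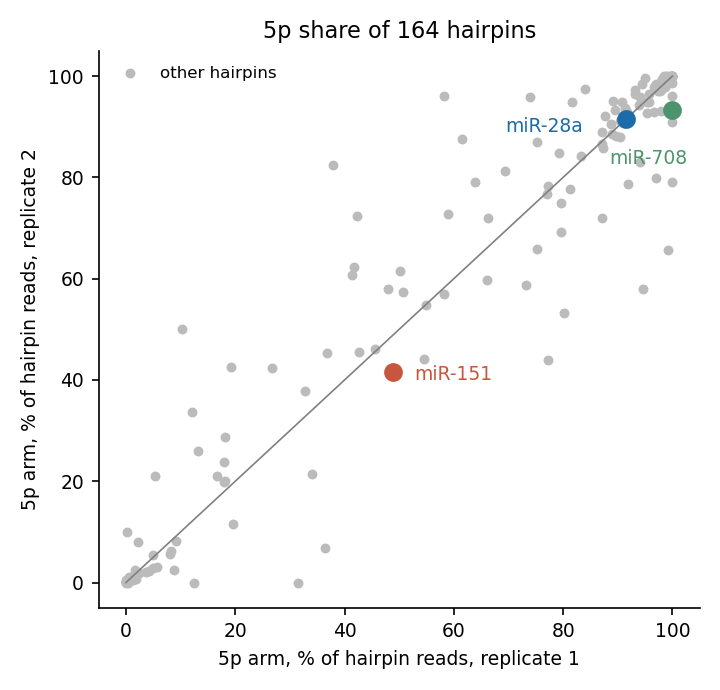
Share of each hairpin's reads from its 5p arm (%), replicate 1 on the horizontal and replicate 2 on the vertical axis, for 164 hairpins; the grey line marks equal shares. miR-151 lies near the middle at 48.9% and 41.6%, miR-28a on the line at 91.5% and 91.4%, and miR-708 below the line at 99.9% and 93.4%.

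The libraries were compared name by name by exact binomial tests (two-sided) against the split given by their totals. The test covered the 1002 names whose counts averaged 10 or more. All 6 members were tested, and 5 of them differed at an adjusted p-value of 0.05 (Benjamini-Hochberg), 2 higher and 3 lower in replicate 2. Across all names tested, 70.6% differed, 36.2% being higher and 34.3% lower in replicate 2, so the members' count is near what is common in these libraries. Their median absolute log2 ratio of replicate 2 over replicate 1 was 0.36, against 0.83 for all names tested, a comparison that is not matched on count. Set against names with a mean count within 2-fold of their own, 4 of the 6 members had a larger absolute log2 ratio than more than 50% of those names. By construction about 50% of any names would, and miR-28a-5p did so only just, at 53.6%.

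The largest differences among the abundant members were in miR-708-5p, with a log2 ratio of -0.72 (exact 95% interval -0.84 to -0.59, binomial adjusted p = 3.66e-29), and in miR-151-5p, with -0.55 (-0.65 to -0.45, adjusted p = 9.14e-27). These stand toward the edge of the usual spread. Of 86 names with a mean count within 2-fold of that of miR-708-5p, 93.0% had a smaller absolute log2 ratio, and of 62 such names for miR-151-5p, 87.1% did. The SD of the log2 ratio over those names was 0.39 and 0.38. miR-151-3p was lower in replicate 2 by much less, with a log2 ratio of -0.12 (-0.21 to -0.03, exact binomial adjusted p = 0.0142, which misses a threshold of 0.01), and miR-28a-5p was higher, with 0.17 (0.09 to 0.24, adjusted p = 2.21e-05). Both ratios were smaller than the SD over names of similar count, 0.37 and 0.27.

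miR-28a-3p had the same log2 ratio as its partner arm, 0.17 (-0.08 to 0.42), and did not pass the test (exact binomial adjusted p = 0.207). miR-708-3p had a log2 ratio of 5.83, with a wide interval of 3.30 to 11.15 beside its single count in replicate 1 (adjusted p = 1.23e-15 in the exact binomial test). Among names of similar count found in both libraries, a ratio this large was rare. Of 397 names with a mean count within 2-fold of its own, 336 (84.6%) had a smaller absolute log2 ratio. Names at 0 in 1 library were counted as larger. Only 338 of the 397 were found in both libraries, so nearly all of the rest were at 0 in 1 library. The SD of the log2 ratio over those 338 names was 2.01. The name just above it in mean level, miR-3063-5p, had 2 and 61 counts.

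**Figure D3:**
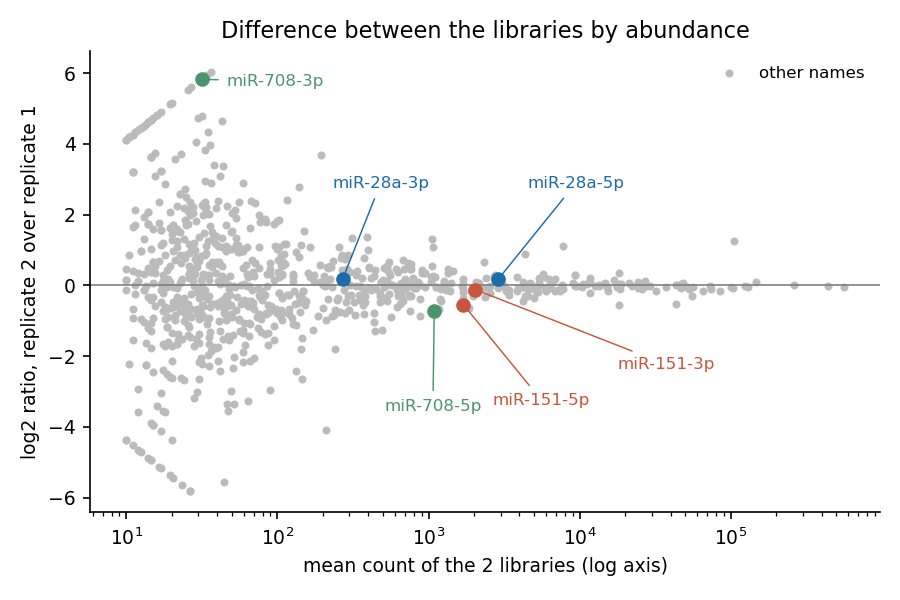
Log2 ratio of replicate 2 over replicate 1 after scaling by library totals, against the mean count of the 2 libraries (log axis), for 853 names averaging 10 or more counts and found in both libraries; 149 further names at 0 in 1 library cannot be drawn. The 6 members are coloured by hairpin: miR-708-3p lies at 5.83 in the wide low-count part, and the others lie between -0.72 and 0.17.

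Related names outside the family were few. Among the mature sequences available, miR-28b, a mouse paralog of miR-28a, had the one closest to miR-28a-5p, 3 edits away. It shares a run of 11 bases with miR-28a-5p but starts a base later, which shifts its seed, in capitals here.
miR-28b: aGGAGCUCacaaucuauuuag
miR-28b was listed in neither table, where a count of 0 allows up to 0.794 and 0.728 CPM, and miR-28c had 1 count in replicate 1 and 0 in replicate 2. Among the names found that had a sequence, the 5p arms of miR-28a and miR-708 were nearest to each other, 5 edits apart. The same held for their 3p arms. The arms of miR-151 had no sequence and were not compared. How the authors assigned reads that match several names is not stated.

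Other miRNAs that surveys of repeat-derived miRNAs place in LINE2 copies were taken as a list of 14 names, miR-28b and miR-28c included. Of these, 9 were found and 6 were found in both libraries. They took 0.433% ± 0.00772 of all counts (SD, n = 2), against 0.204% ± 0.0165 for the miR-28a, miR-151 and miR-708 arms. Most of this came from miR-421-3p with 2973 ± 123 CPM (rank 54) and miR-374b-5p with 1275 ± 220 CPM (rank 87). Both exceeded every member of the family in each library. The sequence of miR-374c-5p, which was not found, is contained in that of miR-374b-5p, so reads within that stretch match both names. The next names, miR-493-3p with 32.1 ± 14.2 CPM, miR-325-5p with 24.5 ± 19.3 CPM and miR-374c-3p with 12.1 ± 5.87 CPM, lay between the family's lesser arms, miR-28a-3p and miR-708-3p. miR-421-5p had 6.19 ± 4.63 CPM. miR-325-3p had 0 and 21 counts, and miR-374b-3p had 0 and 1. The arms of miR-493 and miR-545 not named here were not found.

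**Figure D4:**
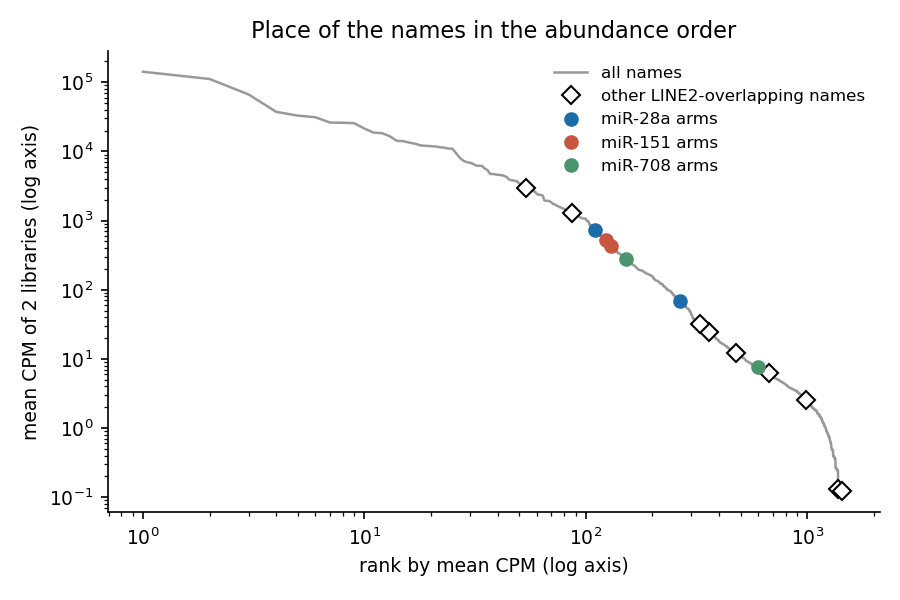
Mean CPM (log axis) of all 1477 names against their rank (log axis), with the family's arms as filled circles coloured by hairpin and 9 other LINE2-overlapping names as open diamonds. The 4 more abundant members lie at ranks 110 to 152, below miR-421-3p (rank 54) and miR-374b-5p (rank 87) and above the other diamonds.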

How the data were processed

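The authors deposited 1 headerless table of raw whole-number counts per mature miRNA name for each of the 2 libraries. Per the submitters' processing notes, cutadapt and Novoalign were used with build mm10. Their roles, versions and settings, the handling of PCR copies and of reads matching several names, and whether chimeric reads were counted apart are not given in the sources used here, and any of these could shift a name's count. Names missing from a table were set to 0. Rows that are not miRNA names (0.00265% and 0.000218% of counts) were left out. CPM used each library's miRNA total. With 1 group, no condition was tested. The exact binomial tests (library against library, arm against arm) covered whole tables and used Benjamini-Hochberg adjustment with a threshold of 0.05. They were tested on data simulated with counting error only, which cannot show how they behave on libraries that differ by more. TMM (edgeR 4.0.16) and DESeq2 1.42.0 size factors under R 4.3.3 were alternative scalings. Python 3.11.15, scipy 1.17.1 and matplotlib 3.10.9 were used. Members and lists were chosen with earlier results of these data known. All 6 members were named, with their neighbours in level, seed matches, nearest hairpins by 5p share and the LINE2 list. Sequence comparisons were chosen later. Sequences and gene spans are RefSeq's for GRCm38.p6, the assembly that mm10 denotes.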

Additional observations from a re-analysis of the deposited data

How the results depend on the processing

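No paired analysis was possible because the study has a single group. Of 59 values recomputed with both libraries, 52 counted as unchanged. These kept their direction and their side of the threshold where tested. Except for arm shares, they also moved by no more than the SD (for the count, 1.5 times). The miR-28a 5p share, 91.44%, moved beyond its SD of 0.0197, to 91.42% with the deeper library drawn down and 91.41% with 1 count added. In a total without miR-31-5p, which is smaller by construction, the family share was 0.237%, miR-28a-5p had 849 CPM, miR-151-3p 604 CPM and miR-28a-3p 79.5 CPM. The miR-28a ratio of 5p to 3p was 10.65 both with the deeper library drawn down and with 1 count added to each arm, outside a very small SD. With a 2-fold ratio also required, 1 member (miR-708-3p) differed between the libraries instead of 5. The number was 4 at an adjusted p-value of 0.01, where miR-151-3p no longer passed, and 4 with a mean of 100 or more counts, where miR-708-3p was not tested. Leaving out each library in turn gives the other's value, which with 2 libraries always lies within the SD and so says nothing about stability. It was 41.6% to 48.9% for the miR-151 5p share. Its arms passed the test without replicate 1 and not without replicate 2. The miR-708 arm share could not be recomputed with at least 1000 counts per hairpin, since replicate 2 had 933. miR-708-3p, at 1 and 62 counts, had 0.265 to 15.04 CPM.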

Other observations

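Names closest to the members in mean level over the 2 libraries, the likeness fixed for this purpose, were as follows. miR-28a-5p lay between miR-466c-5p (731 ± 24.5 CPM) and miR-106b-3p (696 ± 50.8 CPM). miR-151-3p lay between miR-224-5p (519 ± 14.4 CPM) and miR-5126 (507 ± 40.4 CPM), and miR-151-5p between miR-669d-5p (436 ± 107 CPM) and miR-1983 (432 ± 74.0 CPM). miR-708-5p lay between miR-350-3p (283 ± 5.51 CPM) and miR-423-5p (277 ± 32.6 CPM), and miR-28a-3p between miR-30e-3p (69.86 ± 25.03 CPM) and miR-1194 (67.1 ± 14.5 CPM). miR-708-3p lay between miR-3063-5p and miR-7650-5p (7.64 ± 2.57 CPM). None of these gaps exceeded the SD of the member. By mean 5p share, at 91.4% ± 0.0197, the hairpins nearest to miR-28a were miR-450b (91.5% ± 2.66), miR-31 (90.9% ± 0.0749) and miR-361 (92.1% ± 4.26). miR-31, whose 5p arm is the most abundant name in the data, and miR-28a thus gave similar shares of their lesser arm at very different levels, 601095 and 2832 reads per hairpin in replicate 1.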
